A study of Mus musculus with 6 samples.

Results

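A panel of 40 cell cycle genes was followed across 6 mouse heart arrays. The genes were chosen by name: each gene probe whose printed gene name was one of the 40 was read, which gave 57 probes, with at least 1 for each gene. The panel holds 9 genes of S phase (Mcm2 to Mcm7, Rrm2, Tyms and Pcna), 2 cyclins of the G1/S step (Ccne1 and Ccne2), 2 transcription factors (Foxm1 and Mybl2) and 27 genes of mitosis. Of the 22983 genes that were bright enough to be tested on these arrays, 37 were members of the panel, 9 of them from S phase and 25 from mitosis. Ccne2, Aurkb and Ttk were too dim to be tested.

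The hearts came from male C57BL/6 mice, 8 weeks old, with no genetic change named in the labels. All animals had a myocardial infarction made by tying off the left anterior descending coronary artery, and the tissue was taken 21 days later and snap frozen. The 3 antagomir arrays came from mice that received an antagomir against miR-433, a modified antisense oligonucleotide that binds and blocks a microRNA, at 80 mg/kg through the tail vein on 3 consecutive days. The 3 control arrays came from mice given a scrambled sequence at the same dose and schedule, and the stated purpose was to see whether blocking miR-433 prevents fibrosis of the infarcted heart. Uninjured hearts and uninjected animals were not analysed here, so each difference is between 2 sets of infarcted hearts. Whether an array stands for a mouse of its own, and which region of the heart was sampled, is not in the labels, so the p-values measure the spread between these arrays, some of which may be technical.

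A dividing cell copies its DNA in S phase and separates the copies in mitosis. The genes for these steps are switched on in waves: E2F factors drive the S phase wave, and a complex of B-Myb or FoxM1 with the MuvB core drives the later wave of mitotic genes. In the adult heart most cardiomyocytes do not divide. After an infarction, cells that divide include fibroblasts, endothelial cells and immune cells, so transcripts of mitosis come from a small share of the cells. In bulk heart RNA, fewer dividing cells and less of these RNAs per cell cannot be told apart.

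All 9 cardiomyocyte markers on the list were bright enough to be tested. Tnni3, cardiac troponin I, had log2 levels of 7.86, 7.63 and 7.96 on the control arrays and 8.10, 8.03 and 8.37 on the antagomir arrays. A level here is log2 of the scanner's processed signal minus the 75th percentile of that array, so 0 is the brightness of the probe at the 75th percentile. Levels of different probes are not set against each other as amounts of RNA. The scanner software called 55.2% to 58.5% of gene spots well above background on 5 of the arrays but 73.6% on antagomir array 3, which stands apart. On that array dim probes rich in purines read high: over all genes with a mean level under -2, its excess over the mean of antagomir arrays 1 and 2 had a median of 1.67 log2 units at 60% purine or more, 1.04 at 50% to under 60% and 0.45 under 50%. The part of this in the results below was not tested, and values without that array are given for the set medians and for some members.

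No member of the panel passed the test between the groups. With limma, a linear model with moderated variances fitted over all 22983 genes, 0 of the 37 tested members had a Benjamini-Hochberg adjusted p under 0.05, against 0.0131% of all genes tested (3 genes). The lowest adjusted p of a member was 0.691, and all 37 intervals at the 95% level contained 0. No member had an unadjusted p under 0.05 (0 of 37), against 7.21% of all genes, 4.16% with lower and 3.05% with higher values. The fitted value was lower with antagomir for 30 members and higher for 7, against 37.4% lower and 62.6% higher over all genes. That share of all genes moves with the scaling: 54.2% were lower with quantile scaling and in the authors' table, 52.7% with normexp background correction and quantile scaling, and 87% with median scaling, which shifts the difference of every gene by the same -0.47 log2 units. The median difference over the members was -0.39 log2 units, and over all genes it was 0.09. Groups did not overlap for 3 members, against 15.7% of all genes: Cenpa and Tyms had higher values in the antagomir group (8.78% of all genes) and Mcm2 had lower ones (6.94%).

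**Figure D1:**
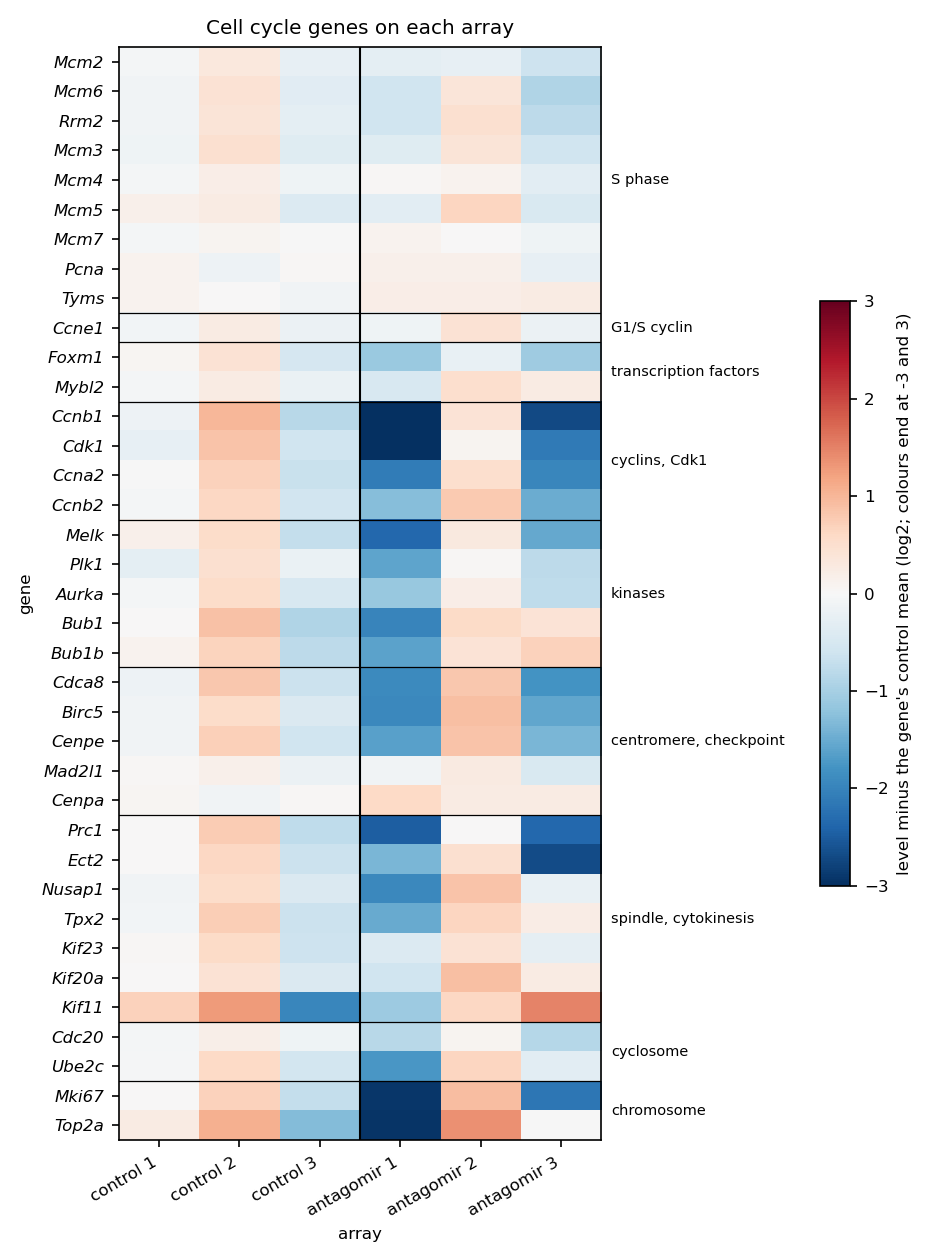
Level of each of the 37 tested cell cycle genes (rows) on each of the 6 arrays (columns), as log2 level minus that gene's mean over the control arrays; red is above and blue below that mean, and colours end at -3 and 3. Control array 2 and antagomir array 2 are red for most mitosis genes, control array 3 and antagomir arrays 1 and 3 are blue, and the S phase genes in the upper block are pale on every array.

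The spread within each group was wide for mitosis genes and narrow for S phase genes. The median within-group SD was 1.06 log2 units over the 25 mitosis genes, 0.25 over the 9 S phase genes and 0.27 over all genes. From the lowest to the highest of the 6 arrays, the median range was 2.73 log2 units for mitosis, 0.94 for S phase and 0.81 for all genes. The range was above 2 log2 units for 19 members, all of them mitosis genes, against 13.7% of all genes. The probes of mitosis genes were also dimmer, with a median level of -2.05, against 0.87 for S phase and -0.03 for all genes. The median within-group SD was 0.98 over the 13 brighter mitosis genes and 1.12 over the 12 dimmer ones. Genes of like brightness outside the panel were not compared, and the part of brightness in this spread was not tested.

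The members also ranked the arrays alike. Control array 2 was the highest control for 34 of the 37 members, against 35.4% of all genes, and antagomir array 2 was the highest antagomir array for 32, against 29.2%. Both held for 31 members, against 13.9% of all genes. That order held for 22 of 25 mitosis genes and for 6 of 9 S phase genes. Control array 3 was the lowest control for 33 members, against 25.6% of all genes. Antagomir array 1 was the lowest of all 6 arrays for 20 members, against 15.1% of all genes, and 18 of these were mitosis genes. Either antagomir array 1 or 3 was the lowest of the 6 for 32 members, against 31.5%. The arrays carry their numbers as names only, and the difference between the mitosis genes and all genes in these counts was not tested.

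The promoters of the panel carry the elements by which the mitotic and S phase waves are usually told apart, and a few are shown to let the letters of the mitosis and S phase genes named below be compared. RefSeq promoter windows from 250 bases before to 50 bases after the start site (build GRCm38.p6) matched 33 of the 40 members by symbol. The motifs searched on both strands were TTTGAA, the letters of the cell cycle homology region (CHR), CCAAT, the NF-Y letters, and 4 E2F cores, which were TTGGCGC with its variant TTGGCGG, as well as TTCCCGC with its variant TTCCCGG. In the mitosis genes shown, Cdk1, Cdc20, Ube2c, Top2a and Mki67, and the S phase genes Mcm2 and Mcm6, the 120 bases before the start are printed 5′ to 3′ on the strand of the gene, with matches on either strand in capitals.
Cdk1: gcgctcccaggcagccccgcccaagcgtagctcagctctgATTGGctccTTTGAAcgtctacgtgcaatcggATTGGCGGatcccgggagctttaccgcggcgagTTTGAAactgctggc
Cdc20: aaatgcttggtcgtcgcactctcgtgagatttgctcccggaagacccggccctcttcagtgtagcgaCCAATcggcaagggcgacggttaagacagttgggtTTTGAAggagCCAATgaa
Ube2c: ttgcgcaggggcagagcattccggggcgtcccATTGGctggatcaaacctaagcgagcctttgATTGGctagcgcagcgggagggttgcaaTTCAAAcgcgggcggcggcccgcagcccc
Top2a: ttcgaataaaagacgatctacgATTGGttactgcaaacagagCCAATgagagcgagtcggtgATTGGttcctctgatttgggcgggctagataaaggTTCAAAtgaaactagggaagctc
Mki67: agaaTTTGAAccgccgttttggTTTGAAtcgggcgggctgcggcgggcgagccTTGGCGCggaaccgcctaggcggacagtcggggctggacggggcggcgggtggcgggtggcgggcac
Mcm2: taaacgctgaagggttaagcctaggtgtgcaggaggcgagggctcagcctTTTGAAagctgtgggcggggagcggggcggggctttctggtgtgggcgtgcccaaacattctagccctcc
Mcm6: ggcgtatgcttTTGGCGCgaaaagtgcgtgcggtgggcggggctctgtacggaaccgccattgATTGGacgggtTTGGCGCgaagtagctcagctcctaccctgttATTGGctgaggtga

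These windows lie, in the same build, at chr10:69352913-69353032 on the minus strand for Cdk1, chr4:118437344-118437463 on the minus strand for Cdc20 and chr2:164769809-164769928 on the plus strand for Ube2c. Those of Top2a (chr11:99024190-99024309), Mki67 (chr7:135716380-135716499), Mcm2 (chr6:88898781-88898900) and Mcm6 (chr1:128359706-128359825) are on the minus strand. TTCAAA is TTTGAA read on the other strand, and ATTGG is CCAAT so read. In Cdk1 the run ATTGGCGG holds a CCAAT on the minus strand and the E2F core TTGGCGG, which share letters. Cdc20 has its CHR letters 18 bases before the start and Top2a has them 23 bases before it, whereas Mcm6 has 2 copies of TTGGCGC and no TTTGAA in its window.

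Over the panel, the CHR letters were found in the 300-base window of 16 of 23 mitosis genes (69.6%), in 1 of 8 S phase genes (12.5%, Mcm2) and in 20.2% of the 27025 genes in the table. CCAAT was found in 82.6% of mitosis genes, 87.5% of S phase genes and 41.1% of all genes. Both sets of letters together were found in 69.6%, 12.5% and 7.97%. An E2F core was found in 4 of 8 S phase genes (Mcm3, Mcm5, Mcm6 and Mcm7), 26.1% of mitosis genes and 14.9% of all genes. These matches describe letters and are no evidence of binding, and absent letters say only that they are not in this window.

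**Figure D2:**
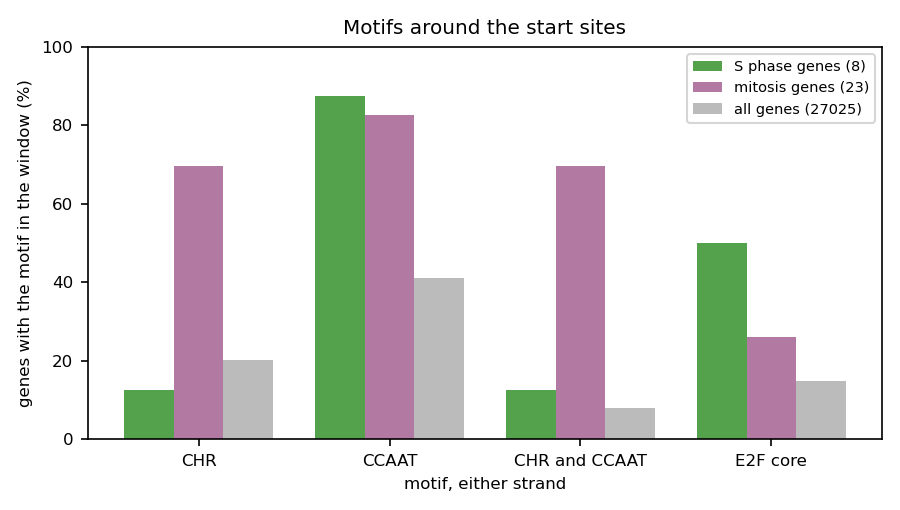
Share of genes (percent, bars from 0) whose window from 250 bases before to 50 bases after the start site holds each motif on either strand, for 8 S phase genes, 23 mitosis genes and all 27025 genes with a window. The CHR letters are in 69.6% of the mitosis genes and 12.5% of the S phase genes, and CCAAT is in 82.6% and 87.5%.

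In S phase, the genes of DNA copying differed little between the groups. Fitted values were lower with antagomir for 7 genes and higher for 2, Tyms and Pcna, with a median of -0.06 log2 units. With quantile scaling 8 were lower, and in the authors' table and with normexp 9 were, with medians of -0.21, -0.21 and -0.098 where 54.2%, 54.2% and 52.7% of all genes were lower. Mcm2 belongs to the ring of Mcm proteins that unwinds DNA at the replication fork. Its level, from a probe at chr6:88833619-88833678 (mm9), was -0.57, -0.19 and -0.76 in the controls, in the order of their numbers, and -0.79, -0.76 and -1.14 with antagomir. The groups are set apart by less than the gap between any pair of controls, and the fitted difference was -0.39 (SE 0.20), a 1.31-fold lower value.

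Mcm6, another subunit of that ring, stood at 2.45, 3.00 and 2.23 in the controls and at 1.96, 2.93 and 1.66 with antagomir (difference -0.38, SE 0.38). Rrm2, the small subunit of ribonucleotide reductase, which makes deoxynucleotides, stood at 0.20, 0.69 and 0.02 in the controls and at -0.29, 0.78 and -0.47 with antagomir (difference -0.30, SE 0.38). For both genes antagomir array 2 lay with the highest control and the other antagomir arrays lay below every control, so the groups overlapped. Mcm3, Mcm4, Mcm5, Mcm7 and Pcna, the sliding clamp of the polymerase, had differences between -0.19 and 0.03, and their groups overlapped too.

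Tyms, thymidylate synthase, was the S phase gene without overlap in the higher direction. Its levels were -3.05, -3.16 and -3.28 in the controls and -2.97, -2.97 and -2.93 with antagomir, a difference of 0.21 (SE 0.13) from a single dim probe. The sign turned to -0.47 with quantile scaling and in the authors' table and to -0.080 with normexp. Tyms-ps, a pseudogene copy with a probe of its own, had levels of -1.46, -0.79 and -1.96 in the controls and -2.69, -1.59 and -2.09 with antagomir (difference -0.72, SE 0.40). Signal from near-identical copies can be shared between such probes, so the value for Tyms is uncertain.

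At the G1/S step, Ccne1, the cyclin E that activates Cdk2, had nearly the same level in both groups. It stood at -0.74, -0.41 and -0.84 in the controls and at -0.80, -0.24 and -0.83 with antagomir, a difference of 0.04 (SE 0.22). Arrays numbered 2 were again the higher ones.

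The transcription factors of the mitotic wave gave unlike values. Foxm1, a forkhead factor that acts on G2 and mitosis genes, stood at -2.85, -2.48 and -3.41 in the controls and at -4.03, -3.14 and -3.97 with antagomir. Antagomir arrays 1 and 3 were below every control and array 2 was within the control range. The difference was -0.80 (SE 0.34) with an adjusted p of 0.691 by limma, and it was -1.62 with quantile scaling and -0.44 with normexp. Mybl2, which encodes B-Myb, stood at -1.85, -1.54 and -1.98 in the controls and at -2.27, -1.30 and -1.55 with antagomir (difference 0.09, SE 0.28). Its sign turned with quantile scaling, with normexp and in the authors' table (-0.043 in each), and a second tested probe gave a difference of -0.15.

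Mitosis genes had lower fitted values with antagomir in 22 of 25 cases, with a median of -0.57 log2 units. The difference was below -1 log2 unit for 7 of them, against 2.38% of all genes. Among these, Ccnb1, Cdk1, Ect2 and Melk were well above background on only 1 antagomir array each. With normexp their differences lay between -0.47 and -0.37. That setting added an offset of 50 to every corrected signal, which by itself makes differences of dim probes smaller. The part of values near background in that count was not tested. The cyclin and Cdk1 group of 4 genes had the lowest median of the mitosis groups, -1.43, but this rank depended on the processing. The group includes Ccnb1 and Cdk1, whose values near background enter this median. With normexp its 4 genes lay between -0.75 and -0.46. Mki67 and Top2a, the group of chromosome proteins, were then at -1.07 and -0.19, which gives a lower median. Cdk1, the kinase that starts mitosis, was read by a probe at chr10:68801072-68801131 (mm9). Its levels were -4.09, -3.01 and -4.45 in the controls and -6.84, -3.77 and -5.97 with antagomir. Antagomir array 2 lay among the controls, and the other antagomir arrays lay below all of them. The difference was -1.68 (SE 0.83, interval -3.71 to 0.36). Its size depended on the processing and on single arrays: it was -0.46 with normexp, -1.02 without antagomir array 1 and -2.56 without antagomir array 2.

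Ccnb1, cyclin B1, the partner of Cdk1, stood at -3.44, -2.29 and -4.12 in the controls and at -6.46, -2.88 and -5.98 with antagomir (difference -1.82, SE 1.02). Ccna2, cyclin A2, which acts in S phase and G2, stood at -1.43, -0.73 and -2.07 in the controls and at -3.52, -0.90 and -3.36 with antagomir (difference -1.18, SE 0.77). Ccnb2, cyclin B2, stood at -0.77, -0.09 and -1.28 in the controls and at -1.99, 0.08 and -2.19 with antagomir (difference -0.66, SE 0.66). In all of these genes antagomir arrays 1 and 3 were the lowest of the 6, while antagomir array 2 lay above control arrays 1 and 3. The signal of Cdk1 and Ccnb1 was well above background on 3 control arrays and 1 antagomir array. Cdk1 had processed signals of 25.8, 56.8 and 19.2 in the controls and 3.14, 26.6 and 6.32 with antagomir, where the lowest signal called well above background was between 11.4 and 20 on the 6 arrays. On antagomir arrays 1 and 3 both genes were thus not well above background, and no fold is given for them. With normexp the difference of Ccnb1 was -0.47, and that of Ccna2 was -0.75. Without antagomir array 3 the difference of Ccnb2 was -0.24 and that of Ccna2 was -0.80.

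**Figure D3:**
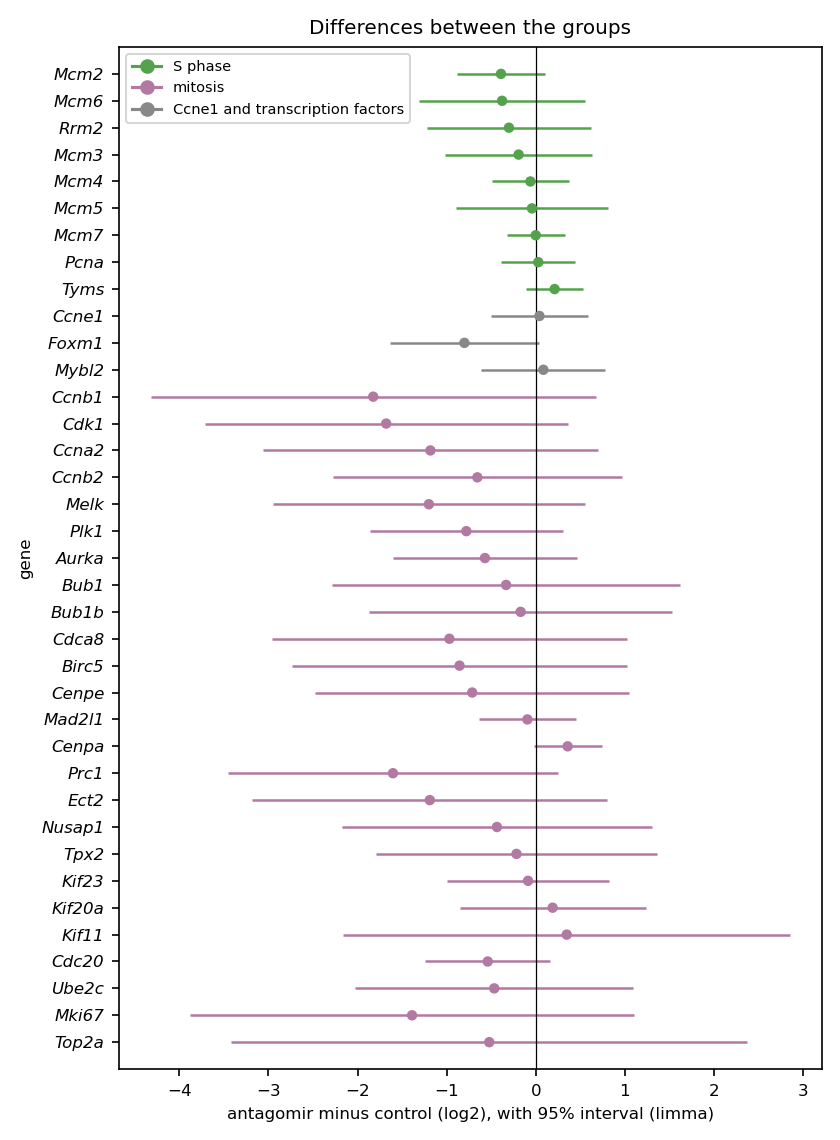
Fitted difference, antagomir minus control in log2 units (horizontal axis), for each of the 37 tested cell cycle genes, with its 95% interval from limma; green marks S phase, purple mitosis and grey Ccne1 and the transcription factors. Every interval crosses 0, and those of mitosis genes such as Ccnb1 (-4.32 to 0.67) are far wider than those of S phase genes such as Mcm7 (-0.33 to 0.32).

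Among the mitotic kinases 5 of 7 were tested and all 5 had lower fitted values, with a median of -0.57. Plk1, polo-like kinase, which acts on centrosomes and at mitotic entry, stood at -1.36, -0.60 and -1.27 in the controls and at -2.66, -1.05 and -1.86 with antagomir (difference -0.78, SE 0.44). Aurka, the spindle pole kinase Aurora A, stood at -1.75, -1.14 and -2.17 in the controls and at -2.83, -1.50 and -2.44 with antagomir (difference -0.57, SE 0.42). In both, antagomir array 2 lay inside the control range. Melk, a kinase that peaks in mitosis, stood at -4.28, -3.88 and -5.15 in the controls and at -6.79, -4.15 and -5.97 with antagomir (difference -1.20, SE 0.72). Bub1, a kinase of the spindle checkpoint, stood at -4.75, -3.87 and -5.66 in the controls and at -6.73, -4.20 and -4.35 with antagomir (difference -0.33, SE 0.80). With normexp the difference of Melk was -0.38. Melk and Bub1 were above background on 2 control arrays and 1 antagomir array, and Bub1 did not share the low value of Melk on antagomir array 3. Bub1b, a further checkpoint kinase, had a difference of -0.17.

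The centromere, checkpoint and passenger proteins held the mitosis gene whose groups did not overlap. Cenpa, the histone H3 variant that marks centromeres, stood at 2.19, 2.03 and 2.17 in the controls and at 2.72, 2.38 and 2.37 with antagomir. Every antagomir array lay above every control, by a difference of 0.36 (SE 0.16), a 1.28-fold higher value with adjusted p = 0.691 by limma. It was 0.33 with quantile scaling and 0.31 with normexp. Its order over the arrays was unlike that of the other mitosis genes, since control array 2 was its lowest.

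Cdca8, or borealin, of the chromosomal passenger complex, stood at -1.14, -0.19 and -1.65 in the controls and at -2.91, -0.18 and -2.79 with antagomir (difference -0.97, SE 0.81). Birc5, or survivin, of the same complex, stood at -0.28, 0.37 and -0.59 in the controls and at -2.09, 0.74 and -1.72 with antagomir (difference -0.86, SE 0.77). Cenpe, a kinesin of the kinetochore, stood at -1.81, -0.99 and -2.30 in the controls and at -3.33, -0.85 and -3.06 with antagomir (difference -0.71, SE 0.72). In these probes of the 3 genes antagomir array 2 was the highest of the 6 arrays and antagomir arrays 1 and 3 were the lowest. A dimmer tested probe of Birc5 had antagomir array 3 as the highest of the 6 (-2.38, against -3.25 on the highest control) and a difference of -0.060, and the mean of the gene's probes gave -0.46. Mad2l1, the checkpoint protein Mad2, had a difference of -0.09.

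Of the 7 spindle, kinesin and cytokinesis genes, 5 had lower and 2 had higher fitted values, with a median of -0.22. Prc1, which bundles microtubules in the midzone of the spindle, stood at -0.87, -0.12 and -1.62 in the controls and at -3.34, -0.86 and -3.22 with antagomir. The difference was -1.60 (SE 0.76), a 3.04-fold lower value, and here antagomir array 2 lay at the level of control array 1. The difference of Prc1 was -2.41 without antagomir array 2, -1.17 without antagomir array 1 and -1.23 without antagomir array 3. With quantile scaling it was -2.30 and with normexp -1.12. Ect2, the exchange factor that starts the cleavage furrow, stood at -3.26, -2.67 and -3.92 in the controls and at -4.65, -2.80 and -5.98 with antagomir (difference -1.19, SE 0.82). It was above background on 3 control arrays and 1 antagomir array. Its difference was -0.37 with normexp and -0.44 without antagomir array 3.

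Nusap1, a spindle protein that binds microtubules, stood at -2.96, -2.30 and -3.27 in the controls and at -4.78, -1.99 and -3.08 with antagomir (difference -0.44, SE 0.71). Kif20a, a kinesin of cytokinesis, stood at -2.15, -1.72 and -2.59 in the controls and at -2.75, -1.25 and -1.90 with antagomir (difference 0.19, SE 0.43). For these genes antagomir array 3 lay within the control range, unlike for Prc1. Kif11, the kinesin that keeps spindle poles apart, had a difference of 0.35 (SE 1.02), and Tpx2 and Kif23 of -0.22 and -0.09. The signs of Kif11 and Kif20a turned with quantile scaling and in the authors' table, and that of Kif11 also with normexp.

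The 2 genes of the cyclosome, the ubiquitin ligase that ends mitosis, had lower fitted values. Cdc20, its activator, stood at -0.17, 0.08 and -0.23 in the controls and at -0.93, -0.03 and -0.97 with antagomir (difference -0.54, SE 0.29). Ube2c, its ubiquitin-conjugating enzyme, stood at -1.20, -0.56 and -1.70 in the controls and at -2.89, -0.50 and -1.46 with antagomir (difference -0.47, SE 0.64). Antagomir array 1 was low for both, and array 3 was low for Cdc20 but within the control range for this probe of Ube2c. A second tested probe of Ube2c read -2.88 on antagomir array 3, below every control, and gave a difference of -0.85.

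Mki67, the proliferation marker that coats mitotic chromosomes, had values that differed widely within the antagomir group. Its probe at chr7:142881591-142881650 (mm9) read processed signals of 415, 695 and 240.5 on the control arrays and 44.8, 642 and 82.2 on the antagomir arrays, all well above background. On the log2 scale the levels were -0.09, 0.61 and -0.81 in the controls and -3.0, 0.82 and -2.27 with antagomir. By level, antagomir array 2 was the highest of the 6 and antagomir array 1 the lowest. The difference was -1.39 (SE 1.02, interval -3.88 to 1.1), and a second probe of the gene gave -1.36. It was -0.63 without antagomir array 1 and -2.54 without antagomir array 2. Top2a, the topoisomerase that untangles chromosomes, stood at -3.48, -2.66 and -5.02 in the controls and at -6.65, -2.35 and -3.72 with antagomir (difference -0.52, SE 1.18), above background on 2 control arrays and 1 antagomir array.

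S phase and mitosis were then set side by side as the mean of each set on each array, after subtracting each gene's control mean. The S phase mean was -0.01, 0.22 and -0.21 in the controls and -0.19, 0.23 and -0.42 with antagomir. The mitosis mean was -0.01, 0.63 and -0.63 in the controls and -1.64, 0.53 and -0.88 with antagomir. Within each group both sets were highest on the array numbered 2, and antagomir arrays 1 and 3 lay below every control in the mitosis set.

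Over the antagomir arrays the S phase mean was -0.13 ± 0.33 (SD, n = 3), where the controls had an SD of 0.22, and the mitosis mean was -0.66 ± 1.1 (SD, n = 3), where the controls had an SD of 0.63. Both differences were smaller than the SD of the antagomir arrays. S phase minus mitosis was -0.01, -0.41 and 0.42 in the controls and 1.45, -0.30 and 0.46 with antagomir. The groups overlapped, antagomir array 1 lay apart, and a set of 3 against 3 arrays cannot give a permutation p below 0.1. The 13 brighter and 12 dimmer of the mitosis genes had medians of -0.71 and -0.38, and antagomir array 3 read -1.20 in the brighter and -0.54 in the dimmer ones.

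**Figure D4:**
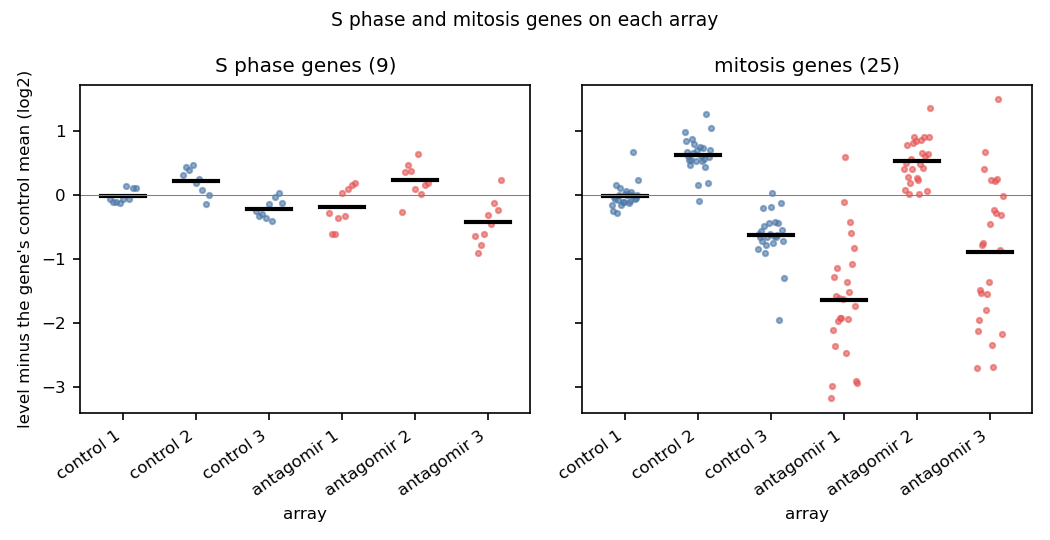
Level minus the gene's control mean (log2, vertical axis) on each array for the 9 tested S phase genes and the 25 tested mitosis genes; each point is a gene and each black bar the mean of the set. The mitosis bars run from -1.64 on antagomir array 1 to 0.63 on control array 2, and the S phase bars stay between -0.42 and 0.23.

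The mitosis median moved with single arrays. It was -0.28 without antagomir array 1, -1.18 without antagomir array 2, -0.54 without antagomir array 3, -0.60 without control array 1, -0.34 without control array 2 and -0.88 without control array 3, and with each left out 0 members passed the adjusted threshold by limma. Without antagomir array 2, 17 members had an unadjusted p under 0.05 by limma, against 10.7% of all genes. That array was the highest antagomir array for 32 of the 37 members, so leaving it out had to lower their antagomir means. The count thus follows in part from the array left out and is no separate evidence of a difference. Control arrays 1 and 2 lie in the upper row of the slide and all other arrays in the lower row. A block for the slide row leaves only control array 3 to be set against the antagomir arrays; the mitosis median was then -0.093 and the S phase median 0.023, and for the other controls slide row and group cannot be told apart. With quantile scaling and in the authors' table the mitosis median was -1.01, and 24 of 25 mitosis genes were lower. With normexp the median was -0.38 and 23 were lower. The share of all genes lower in these settings was 54.2%, 54.2% and 52.7%. With median scaling the median was -1.04, which is the value above plus the shift of -0.47 that every gene has.

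Single members moved more than the medians. With normexp the value was over 1.5 times smaller for 11 members, over 1.5 times larger for 3 and of the other sign for 4. Without antagomir array 2 it was over 1.5 times larger for 28 members, and without antagomir array 1 it was over 1.5 times smaller for 13 and of the other sign for 9. Without antagomir array 3 it was over 1.5 times smaller for 8, larger for 5 and of the other sign for 7. Kif11 was then at -0.23, Bub1b at -0.60, Ccnb1 at -1.39 and Cdca8 at -0.55.

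Median scaling was the setting that put members past the threshold. It called Ccnb1 (difference -2.30, adjusted p = 0.0201 by limma) and Cdk1 (difference -2.15, adjusted p = 0.0410), 2 of 37 members against 0.866% of all genes. The 75th percentile lay between 3.87 and 3.94 log2 units above the median on 5 arrays and 2.41 above it on antagomir array 3, so median scaling lowered that array against the rest. The fit then gave every gene the same SE of 0.60, below the SE of 1.02 for Ccnb1 and of 0.83 for Cdk1 with 75th percentile scaling. With median scaling and without antagomir array 3, an alternative chosen after seeing the data, 0 members passed, and the values were -1.35 and -1.42.

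Levels on antagomir array 3 were also set against the purine content of the members' probes. For the 25 tested members with probes under 50% purine, that array minus the mean of antagomir arrays 1 and 2 had a median of -0.62 log2 units. For the 11 members at 50% to under 60% purine the median was 0.23, but these did not move as one. The value was between 0.094 and 1.73 for Kif20a, Ube2c, Nusap1, Tpx2, Bub1, Bub1b and Kif11, and it was -0.28 for Kif23, -0.36 for Mcm2, -0.54 for Mad2l1 and -0.62 for Mcm3. Cenpa, with 60% purine, had -0.18. The median differences between the groups were -0.66 and -0.19 in these 2 sets. The part of probe composition in the results was not tested.

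The 3 untested members were at background. Ccne2, cyclin E2, and Aurkb, the kinase Aurora B of the passenger complex, were well above background on 0 of 6 arrays. Ttk, the checkpoint kinase Mps1, was above background on 1 array, antagomir array 3, with a level of -2.65 there and levels between -6.99 and -6.39 on the other 5. Ttk has 58.3% purine in its probe. Of the tested members 27 were well above background on all 6 arrays.

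Of the members 13 had more than 1 probe. In 7 tested members more than 1 probe was bright enough to be tested, and in 3 of these, Mad2l1, Cdca8 and Mybl2, the tested probes differed in sign. The second probe of Cdca8, on which antagomir array 3 was the highest of the 6, gave 0.34, and those of Mad2l1 gave -0.36 and 0.13, each with a dimmer signal than the probe that stands for the gene. The spans of Ccna2, Prc1, Aurka, Kif20a, Cdc20, Nusap1 and Mcm7 overlap those of other tested genes, such as Exosc9 for Ccna2 and Ap4m1 for Mcm7. Whether a probe lies in an exon, intron or UTR was not annotated here.

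Further genes of the same pathways were read from lists outside the panel. Of 53 further mitotic genes 40 were tested, 26 with lower and 14 with higher fitted values, against 37.4% and 62.6% of all genes. Limma called 0 of these, with an unadjusted p under 0.05 for 2, 1 in each direction, against 7.21% of all genes. Their median was -0.19, and their array means were -0.02, 0.34 and -0.32 in the controls and -0.82, 0.35 and -0.02 with antagomir, the same order of controls as in the panel. Anln, the furrow scaffold anillin, had the lowest p, with levels of -0.49, 0.25 and -0.87 in the controls and -1.64, -0.81 and -1.97 with antagomir (difference -1.1, SE 0.41, adjusted p = 0.673 by limma). Sgo2a, shugoshin, a protector of cohesion between chromatids, was next, with levels of -1.78, -2.92 and -2.10 in the controls and -1.55, -1.51 and -1.33 with antagomir (difference 0.81, SE 0.31, adjusted p = 0.674). The groups overlapped for Anln and did not for Sgo2a.

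The 45 tested of 50 further replication genes were split into 29 with higher and 16 with lower values, against 62.6% and 37.4% of all genes. Their median was 0.09, the same as that of all genes. Limma called 0 of these, with an unadjusted p under 0.05 for 1, against 7.21% of all genes. Pole, the catalytic subunit of DNA polymerase epsilon, stood at -0.41, -0.55 and -0.23 in the controls and at 0.11, 0.14 and 0.32 with antagomir. Its groups did not overlap, and the difference was 0.59 (SE 0.15, adjusted p = 0.556 by limma). Pola1, the catalytic subunit of polymerase alpha, had a difference of -0.56 (SE 0.25).

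Regulators of cycle entry and arrest gave 0 called genes by limma. An unadjusted p under 0.05 was found for 0 of 7 G1 genes and 1 of 8 CDK inhibitors. It was also found for 1 of 18 regulators of the E2F set and 2 of 17 p53 targets, against 7.21% of all genes. Fitted values were lower for 37.4% and higher for 62.6% of all genes. Of 7 G1 cyclins and kinases 5 were lower and 2 higher, led by Ccnd1, cyclin D1 (difference -0.62, SE 0.32), and Ccnd2 (-0.30, SE 0.28). Of 8 CDK inhibitors 3 were lower and 5 higher. Cdkn2b, which encodes the inhibitor of Cdk4 and Cdk6 named p15, stood at -1.26, -0.04 and -1.74 in the controls and at -2.81, -1.72 and -2.54 with antagomir (difference -1.34, SE 0.51), and Cdkn1c had a difference of 0.26 (SE 0.13). Among 18 E2F, Rb and DREAM regulators 10 were higher and 8 lower. Lin9, a subunit of the MuvB core, had a difference of 0.42 (SE 0.13, adjusted p = 0.650 by limma) and E2f6, a repressor of the E2F family, of 0.30 (SE 0.19). Of 17 p53 targets 13 were lower and 4 higher, with Phlda3 at -0.98 (SE 0.35) and Plk2 at -0.61 (SE 0.24). The medians of these 4 lists were -0.02, 0.05, 0.02 and -0.14.

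Markers of other cells differed between the arrays too. All 9 fibroblast markers had lower values with antagomir, against 37.4% of all genes. For 6 of them the unadjusted p was under 0.05 by limma, against 4.16% of all genes, and 0 were called. Their mean relative to the controls was -0.07, 0.43 and -0.36 in the controls and -2.04, -1.36 and -2.28 with antagomir. Their summed level, in multiples of the 75th percentile signal, was between 782 and 1062 in the controls and between 390.3 and 589 with antagomir. Col3a1, a chain of fibrillar collagen, had a difference of -3.33 (SE 0.53, adjusted p = 0.496 by limma). The groups did not overlap in the mean of the fibroblast list. Antagomir array 2 lay below every control in the fibroblast mean but within the control range in the mitosis mean. Within each group, however, array 2 was the highest for the fibroblast mean as it was for the mitosis mean. Array 2 was the highest in both groups for 6 of the 9 fibroblast markers, against 13.9% of all genes.

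**Figure D5:**
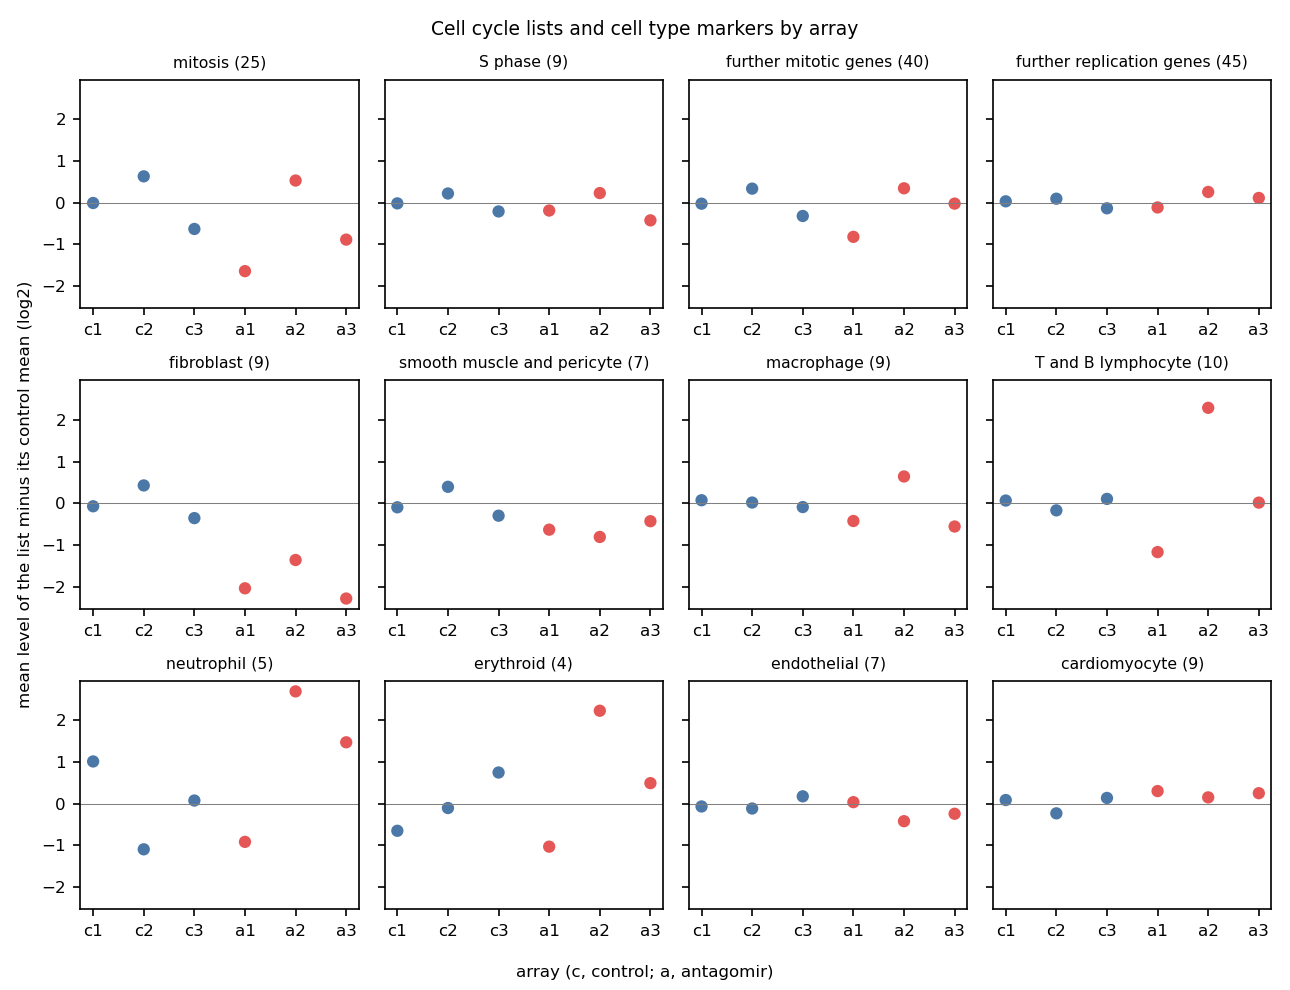
Mean level of each gene list minus its control mean (log2, vertical axis) on control arrays 1 to 3 (blue, c1 to c3) and antagomir arrays 1 to 3 (red, a1 to a3); the number tested is in each title. Antagomir array 2 is the highest antagomir array for mitosis (0.53), lymphocyte (2.29), neutrophil (2.70), erythroid (2.23) and macrophage (0.64) genes. It is also the highest for fibroblast genes (-1.36), which are low on all 3 antagomir arrays.

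Blood and immune markers were high on antagomir array 2. The mean of 10 tested lymphocyte markers of 11 was 0.07, -0.17 and 0.10 in the controls and -1.17, 2.29 and 0.02 with antagomir, and the summed level ran from 3.27 to 3.89 in the controls and from 3.00 to 16.3 with antagomir. Cd3e, a chain of the T cell receptor complex, stood at -0.29, -0.40 and -0.24 in the controls and at -0.33, 1.43 and -0.06 with antagomir. Among the antagomir arrays, array 2 was the highest and array 1 the lowest for lymphocyte and mitosis genes alike, but among the controls array 2 was highest for mitosis and lowest for lymphocyte genes.

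The 5 tested of 6 neutrophil markers had means of 1.01, -1.09 and 0.08 in the controls and -0.91, 2.70 and 1.47 with antagomir, and summed levels of 0.937 to 3.99 and 1.17 to 19.6. Mpo, the enzyme of neutrophil granules, had a difference of 1.72 (SE 0.90) but was not well above background on all 6 arrays. Its levels were -4.96, -5.54 and -4.75 in the controls and -4.52, -1.23 and -4.35 with antagomir. With normexp the difference was 0.49, and leaving out an array gave 0.65 to 2.29. The 4 tested of 7 erythroid markers had means of -0.65, -0.10 and 0.75 in the controls and -1.03, 2.23 and 0.49 with antagomir, and summed levels of 75.7 to 222 and 53.7 to 615, with Slc4a1, the red cell anion exchanger, at a difference of 0.77 (SE 0.52). The 9 macrophage markers had means of 0.07, 0.02 and -0.09 in the controls and -0.43, 0.64 and -0.56 with antagomir. Their summed levels were 83.6 to 88.4 and 55.1 to 124. Fitted values were lower for 8, against 37.4% of all genes, and higher for Cd68 (1.16, SE 0.76). Cd68 was dim, with levels from -5.03 to -1.91 and its highest value on antagomir array 3. Its difference was 0.24 with normexp, and leaving out an array gave 0.44 to 1.87. Antagomir array 2 was the highest antagomir array for all of these lists.

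Of 7 smooth muscle and pericyte markers and of 7 endothelial markers, 6 had lower values in each list, against 37.4% of all genes. Of the smooth muscle and pericyte markers 4 had an unadjusted p under 0.05 and groups without overlap, all lower, against 4.16% and 6.94% of all genes, and of the endothelial markers 1 did. The smooth muscle and pericyte markers had means of -0.097, 0.39 and -0.30 in the controls and -0.63, -0.81 and -0.43 with antagomir, and summed levels of 108 to 166 and 79.9 to 105. Pdgfrb, the pericyte receptor, had a difference of -0.64 (SE 0.18). The endothelial markers had means of -0.06, -0.11 and 0.18 in the controls and 0.04, -0.42 and -0.24 with antagomir, and summed levels of 84.8 to 124 and 68.9 to 95.8, with Emcn at -0.58 (SE 0.23). The 9 cardiomyocyte markers had means of 0.09, -0.23 and 0.14 in the controls and 0.30, 0.15 and 0.25 with antagomir, and summed levels of 3276 to 3831 and 3897 to 4255. The part of these cell types in the levels of the mitosis genes was not tested.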

How the data were processed

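Heart RNA was measured on 1-colour Agilent arrays (Cy3), with 3 arrays per group on 1 slide in 1 scan. Intensities are the processed signals written by Agilent Feature Extraction 10.7.1.1, which had subtracted background, per the file headers; its flags for outlier spots and for spots well above background were used as deposited. The authors' deposited table holds the same signals as intensities (within 1% for 100% of probes) and normalised log2 values with column medians of about 5.00. Their method is not named in the sources used here, but the sorted values of the columns differ by at most 0.23 log2 units. Differences from that table nearly equal those with quantile scaling, such as -2.11 for Cdk1 in both. It served as an alternative, but the 2 are not independent of each other.

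Each array has 62976 spots, 59305 of them for genes. Control spots and 154 to 233 outlier spots per array were left out, spots of a probe were averaged as log2, and 55661 probes remained after 20 without a usable spot were dropped. No spot was saturated. From the log2 of each processed signal the 75th percentile of its array was subtracted. A probe entered the tests if it was well above background on 3 or more of the 6 arrays, whatever their group, and the brightest stood for its gene. Probe positions are mm9. Names were updated through RefSeq (GRCm38.p6): 26679 probes by accession, 2534 by symbol and 474 by synonym, and 25974 kept the file's name. All 57 panel probes kept theirs.

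The comparison used limma 3.58.1 under R 4.3.3 (two-sided, Benjamini-Hochberg over all genes, threshold 0.05). Tables were made in Python 3.11.15 with numpy 2.4.6 and pandas 2.3.3, and figures with matplotlib 3.10.9. Only the limma fit was tested on simulated arrays, with known changes and noise independent between genes. The other steps were not tested in this way. The number of arrays limits the precision. Same-numbered arrays had correlations of deviations of 0.22, 0.14 and -0.05, so numbers were not taken as pairs.

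The panel and all lists were chosen with earlier results of these data known. Arrays are given in full for members whose groups did not overlap and, in each role, for up to 4 members with the smallest unadjusted p. From other lists the first 2 genes by p are named, or the first 1 for cell types, from up to 4 that the rule allowed. Alternatives were 3 scalings or background corrections, the authors' table, 2 filters, 2 ways of using a gene's probes and robust moderation. Array weights, replicate and slide row blocks, and each array left out were the others. Normexp was run with an offset of 50 added to every corrected signal, which makes differences of dim probes smaller.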

Additional observations from a re-analysis of the deposited data

How the results depend on the processing

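Of the 19 alternatives, every probe by itself gave no single value per member. Across the others 84 of 656 values of the 37 members changed sign, in 19 members. The other 18 members kept their sign in every alternative that gave them a value. The 2 filters, robust moderation and the replicate block gave the members the values of the main fit, so their part of the 656 holds no changes. The number of members called stayed at 0 by limma except with median scaling, where it was 2 (Ccnb1 at -2.30 and Cdk1 at -2.15). That fit shifted the median of all genes to -0.38, from 0.09, and gave all genes a single SE. The median of all genes was -0.03 with quantile scaling and in the authors' table, -0.01 with normexp and 0.26 with no filter on dim probes. Counts of all genes called were 199 with median scaling, 8 with array weights, 6 with every probe by itself, 2 with the mean of a gene's probes, 1 with quantile scaling, in the authors' table and with no filter, and 0 with normexp, with the filter on all 6 arrays and with either block, against 3. Leaving out an array gave 0 to 3.

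Median scaling put the S phase median at -0.53. It shifted every gene by -0.47, which alone turned the signs of Ccne1 (-0.43), Cdkn1c (-0.22), Cenpa (-0.11), E2f6 (-0.17), Kif11 (-0.12), Kif20a (-0.28), Lin9 (-0.054), Mybl2 (-0.39), Pcna (-0.44), Tnni3 (-0.12) and Tyms (-0.26). Quantile scaling turned Ccne1 (-0.00012), Kif11 (-0.44), Kif20a (-0.049), Mcm7 (0.00023), Mybl2 (-0.043), Pcna (-0.015) and Tyms (-0.47). The authors' table turned Ccne1 (-0.00031), Kif11 (-0.44), Kif20a (-0.050), Mybl2 (-0.043), Pcna (-0.015) and Tyms (-0.47). Normexp turned Kif11 (-0.14), Mybl2 (-0.043), Pcna (-0.020) and Tyms (-0.080), and the mean of a gene's probes turned Mybl2 (-0.031). Array weights, whose estimation stopped short of its convergence tolerance, turned Cd68 (-0.069), Kif11 (-0.54), Kif20a (-0.13), Mcm4 (0.047), Mcm7 (0.094) and Mybl2 (-0.12), with 10 members at an unadjusted p under 0.05 (11.9% of all genes) and a mitosis median of -0.99. With the filter on all 6 arrays, 14 of the 16 mitosis genes left were lower, fewer because fewer genes were tested. In the fit with slide row as a term, 4 S phase genes were lower, and the signs turned of Bub1 (0.56), Bub1b (0.61), Ccnd2 (0.20), Kif23 (0.53), Mad2l1 (0.086), Mcm3 (0.16), Mcm4 (0.080), Mcm5 (0.36), Mcm7 (0.023), Pcna (-0.0082), Top2a (0.78), Tpx2 (0.43) and Ube2c (0.081). The causes were not tested.

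Replicate numbers were not taken as pairs, and whether they pair these arrays was not settled. Each number holds a control and an antagomir array, so the replicate block cannot change a fitted difference. Its S phase and mitosis medians of -0.06 and -0.57 are those of the main fit by design and are no check of them. In the limma fit with this block, 7 members had an unadjusted p under 0.05, against 9.89% of all genes. It called 0 members and 0 genes, against 3 genes in the main fit.

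Leaving out each array in turn gave a mitosis median of -1.18 to -0.28, an S phase median of -0.39 to 0.059, and 3 to 8 S phase genes lower. The S phase median was -0.09 without control array 1, 0.039 without control array 2, -0.25 without control array 3, -0.10 without antagomir array 1, -0.39 without antagomir array 2 and 0.059 without antagomir array 3. Ranges that crossed 0 were -0.78 to 0.49 for Bub1, -0.60 to 0.55 for Bub1b, -0.15 to 0.17 for Ccne1, -0.63 to 1.06 for Kif11, -0.17 to 0.58 for Kif20a, -0.39 to 0.20 for Kif23, -0.28 to 0.086 for Mad2l1, -0.48 to 0.045 for Mcm3, -0.14 to 0.063 for Mcm4, -0.39 to 0.16 for Mcm5, -0.051 to 0.059 for Mcm7, -0.12 to 0.37 for Mybl2, -1.08 to 0.31 for Nusap1, -0.044 to 0.16 for Pcna, -1.47 to 0.68 for Top2a, -0.65 to 0.44 for Tpx2 and -1.02 to 0.17 for Ube2c. Median scaling without antagomir array 3, chosen after seeing the data, gave an S phase median of 0.096 with 3 genes lower and a mitosis median of -0.50, and turned Kif11 (-0.19), Kif23 (0.042), Mad2l1 (0.12), Mcm3 (0.049), Mcm4 (0.099), Mcm5 (0.20) and Mcm7 (0.096). Signal over background limits the dim genes: differences of Cdk1, Ccnb1, Ect2, Melk, Bub1 and Top2a rest on 2 of 3 antagomir arrays that were not well above background.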
